A study of Homo sapiens with 6 samples.

Results

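The genes of the eukaryotic translation initiation factors and the 4E-binding proteins were compared between control and MYCN-induced neuroblastoma cells. Members were the protein-coding genes outside chromosome Y whose symbol begins with EIF and a digit from 1 to 6, without the eIF2 kinases EIF2AK1 to EIF2AK4 and without readthrough genes with a hyphenated name. The rule found 51 of 60651 genes, of which 50 passed the count filter. The cells were of SK-N-AS, an established line from a human neuroblastoma without amplified MYCN. All cultures carried the tetracycline repressor and a MYCN gene that tetracycline switches on, were grown from single clones and were kept under G418 and blasticidin. The 3 control cultures are labelled ETOH and the 3 MYCN-induced cultures received tetracycline, both for 120 h, which the labels also give as 5 days. Each condition is thus 1 engineered cell model in 3 cultures, and p-values measure the spread between these cultures. No cells lacking the inducible MYCN gene but given tetracycline were analysed here, so MYCN and tetracycline cannot be told apart.

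Most cellular mRNAs are translated by a scanning mechanism. The factor eIF2 brings the initiator tRNA to the small ribosomal subunit together with eIF1, eIF1A, eIF3 and eIF5, while eIF4F, made of the cap-binding protein eIF4E, the scaffold eIF4G and the helicase eIF4A, recruits the subunit to the mRNA cap. The 4E-binding proteins compete with eIF4G for eIF4E and are released from it when mTOR phosphorylates them. Stress kinases phosphorylate eIF2 and thereby block its exchange factor eIF2B, which lowers general initiation and favours translation of ATF4 mRNA. MYC family proteins are known activators of ribosome and translation genes.

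Ribosome-depleted total RNA was sequenced, and the deposited estimated counts, which are read pairs per gene, summed to between 64500589 and 102249336 per library. MYCN itself was at 30.3, 35.5 and 32.4 CPM (counts scaled to a common library total and normalized by the TMM method) in control replicates 1, 2 and 3 and at 211, 221 and 199 CPM in the induced libraries (log2 fold change 2.68, adjusted p = 4.155e-05 by the quasi-likelihood test of edgeR with Benjamini-Hochberg adjustment). Values marked SE are standard errors of that fold change. On the first principal component induced replicate 3 was at 69.1, induced replicates 1 and 2 were at 14.4 and 13.1, and the controls lay between -40.3 and -25.9. Calls of the factor genes and of the gene lists are given with and without induced replicate 3. Of the markers of the adrenergic neuroblastoma state, HAND2 and GATA3 were at or above 99.9 CPM in every library, ISL1, PHOX2A and DBH lay between 3.23 and 23.9 CPM, and TH stayed at or below 1.58 CPM. Of the mesenchymal markers VIM, FN1 and YAP1 were at or above 28.4 CPM, and NOTCH2, SNAI2 and PRRX1 lay between 4.23 and 16.1 CPM. Of the markers given here FN1 alone was called in edgeR with all libraries and fell (log2 fold change -0.71, edgeR adjusted p = 0.0330, and 0.0126 without induced replicate 3). Without induced replicate 3, edgeR also called DBH and ISL1 lower (adjusted p 0.0156 and 0.0177). That fit called VIM, PRRX1 and YAP1 higher (edgeR adjusted p 0.0254, 0.0273 and 0.0366). DESeq2 called FN1, ISL1 and DBH lower and VIM higher. Of the markers of other cells PTPRC, EPCAM, PECAM1 and ALB were at or below 2.07 CPM. The mesenchymal marker CD44 and the T cell marker CD3E are listed at 0 in every library, which may not reflect their expression. These are bulk libraries, in which fewer cells of a type and less RNA per cell cannot be told apart.

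Of the 50 tested factor genes, 2 rose and 0 fell at an adjusted p under 0.05 in edgeR. The 2 were EIF5, whose product makes eIF2 hydrolyse its GTP at the start codon, and EIF2S2, the beta subunit of eIF2. Over all 29086 genes tested, 1.02% were called higher and 2.38% lower. DESeq2 called 7 of the 50 higher and 0 lower, against 3.11% and 4.12% of all genes. Without induced replicate 3, edgeR again called 7 higher and 0 lower, against 3.68% and 4.44% of all genes. It called 1 higher without control replicate 1 or induced replicate 1, against 0.162% and 0.252% of all genes. It called 0 without control replicate 2 or 3, against 0.0630% and 0.105% of all genes, and 3 without induced replicate 2, against 0.589%. Fewer calls in these fits were thus seen over all genes too. At an unadjusted p under 0.05 there were 13 factor genes higher and 1 lower, beside 8.13% and 10.6% of all genes.

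Small differences in one direction were frequent among the factor genes. The log2 fold change was above 0 for 42 of the 50, against 49.9% of all genes tested and 55.2% of protein-coding genes. With library size only or upper-quartile normalization it was above 0 for 37, and the share of all genes in these fits is not given here. The median was 0.13, against -0.00 for all genes and 0.03 for protein-coding genes. The 3 induced values all lay above the 3 control values for 19 of the 50 and all below for 2. The same held for 11.5% and 14.7% of all genes, and for 2372 and 2161 of 14865 protein-coding genes. The values that did not overlap upward came from every complex, and those that did so downward were EIF4E3 and EIF4EBP2. By complex, the median log2 fold change was 0.29 for eIF1 and eIF1A, 0.18 for eIF2 and the other initiator tRNA carriers, 0.14 for eIF2B, 0.15 for eIF3 and 0.17 for the group of eIF5, eIF5A, eIF5B and eIF6. It was lower in the cap-binding machinery, at 0.02 for eIF4F with its cofactors and -0.05 for the 4E-binding proteins. Without induced replicate 3 the median of eIF4F with its cofactors was 0.06, and without induced replicate 2 the medians of eIF2B and of the 4E-binding proteins were 0.09 and 0.0033.

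**Figure D1:**
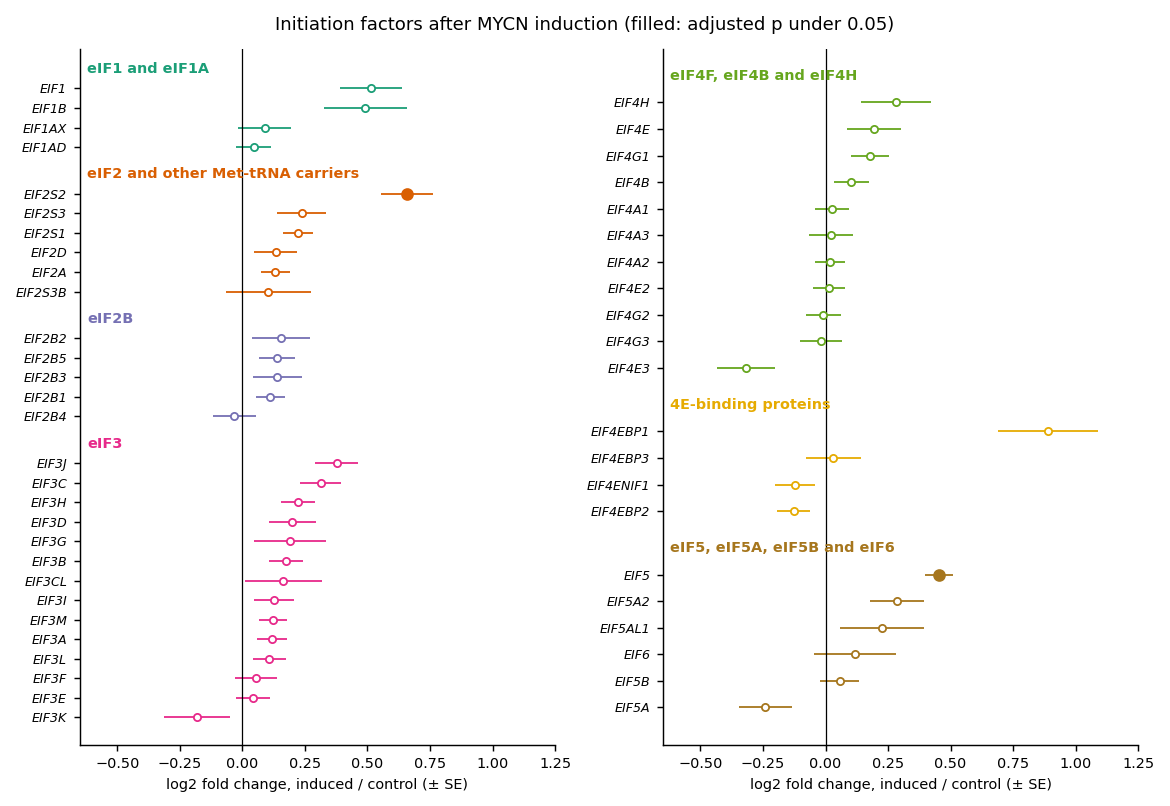
The log2 fold change between MYCN-induced and control cells (x axis) is plotted for the 50 tested factor genes (y axis), grouped by complex, with bars for the standard error and filled points for an adjusted p under 0.05 in edgeR. The filled points are EIF5 at 0.45 and EIF2S2 at 0.66, while EIF4EBP1 at 0.89 is open and 8 genes lie below 0.

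EIF5 had the narrower spread of the 2 called genes. It (ENSG00000100664.11, GRCh38 chromosome 14, bases 103333544 to 103345025 of the plus strand) was at 277, 268 and 269 CPM in control replicates 1, 2 and 3 and at 371, 373 and 370 CPM in induced replicates 1, 2 and 3. All induced libraries were higher by a like amount, and induced replicate 3 did not stand apart. EIF5 rose from 271 ± 4.78 to 371 ± 1.52 CPM (SD, n = 3 each), a 1.37-fold increase (log2 fold change 0.45 ± 0.06 SE, edgeR adjusted p = 0.00878). The log2 fold change stayed between 0.42 and 0.47 over 14 alternatives. The edgeR adjusted p was 0.0964 without control replicate 2 and 0.0662 without control replicate 3, within a range of 1.316e-09 to 0.0964 over the alternatives.

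The promoters of EIF5, EIF4E and EIF1 are shown as examples of factor genes with the E-box variant, with the E-box and without a match. Windows of 250 bases before to 50 bases after the transcript start (RefSeq, GRCh38.p14) were available for 43 of the 51 genes, with 59 windows in all. EIF4EBP1, EIF3E, EIF3H, EIF3A, EIF3G, EIF3CL, EIF2S2 and EIF3L had none. Both strands were searched for the E-box CACGTG, to which MYC family proteins bind, for its variant CACGCG, and for TGATGNAA, the element bound by C/EBP-ATF dimers. In the stretches shown, capitals mark a match on either strand, no match overlaps another and no annotated exon of GENCODE 44 lies within them. EIF5 is shown as the gene with the lowest p, in the stretch from 250 to 86 bases before the more downstream of its 2 starts (chr14:103334638-103334802, plus strand), EIF4E as the gene of the cap-binding protein with 2 E-boxes (chr4:98929134-98929383, minus strand), and EIF1 as a gene without a match (chr17:41688635-41688884, plus strand).
EIF5: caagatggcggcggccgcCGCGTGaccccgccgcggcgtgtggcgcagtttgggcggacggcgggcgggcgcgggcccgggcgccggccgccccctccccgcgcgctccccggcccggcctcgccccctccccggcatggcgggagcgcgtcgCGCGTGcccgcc
EIF4E: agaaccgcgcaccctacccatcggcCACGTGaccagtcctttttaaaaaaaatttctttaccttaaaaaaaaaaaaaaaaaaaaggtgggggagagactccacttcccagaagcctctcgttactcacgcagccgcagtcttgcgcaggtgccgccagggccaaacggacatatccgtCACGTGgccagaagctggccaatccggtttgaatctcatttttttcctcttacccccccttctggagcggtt
EIF1: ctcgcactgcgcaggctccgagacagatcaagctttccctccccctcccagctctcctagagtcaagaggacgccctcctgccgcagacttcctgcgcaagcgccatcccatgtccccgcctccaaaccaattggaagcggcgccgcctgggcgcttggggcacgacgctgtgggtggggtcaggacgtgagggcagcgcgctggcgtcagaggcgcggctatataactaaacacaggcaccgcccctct
In EIF5 the variant begins 232 and 97 bases before the start, and in EIF4E the E-box begins 225 and 72 bases before it. The E-box was found in 11 of the 43 genes with a window (25.6%), against 7.26% of all windows, 8.77% of all genes and 10.9% of protein-coding genes. The 11 were EIF1B, EIF2B3, EIF3F, EIF3K, EIF4A3, EIF4B, EIF4E, EIF4EBP3, EIF4G1, EIF4H and EIF5A2. None of them was called in edgeR, and their log2 fold changes ran from -0.18 for EIF3K to 0.49 for EIF1B. The variant was found in 8 of the 43 (18.6%, against 11.4% of all windows and 18.1% of protein-coding genes), and the C/EBP-ATF element in 1, EIF4E3 (2.33%, against 3.62% of all windows). A match describes letters and is not a binding site.

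The eIF2 complex carries the initiator tRNA, with the alpha subunit EIF2S1 as the target of the stress kinases, the beta subunit EIF2S2 as the contact with eIF5 and eIF2B, and the gamma subunit EIF2S3 binding GTP and the tRNA. EIF2S2 (ENSG00000125977.7, chromosome 20 from 34088309 to 34112243, minus strand) was at 121, 127 and 144 CPM in the controls and at 188, 197 and 233 CPM in the induced libraries. Each induced library was above each control, with replicate 3 highest in both conditions. EIF2S2 rose from 131 ± 12.0 to 206 ± 24.2 CPM (SD, n = 3 each), which is 1.58-fold (log2 fold change 0.66 ± 0.10 SE, edgeR adjusted p = 0.0197). With 1 library at a time left out, its log2 fold change ran from 0.56 to 0.73. The call was lost without control replicates 1, 2 or 3 (edgeR adjusted p 0.0910, 0.122 and 0.0556) or without induced replicate 1 (0.0537), within a range of 3.682e-05 to 0.122 over 14 alternatives.

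The other eIF2 subunits had smaller differences. EIF2S1 was at 187, 186 and 185 CPM in the controls and at 212, 228 and 211 CPM in the induced libraries, with no overlap (log2 fold change 0.22 ± 0.06 SE, edgeR adjusted p = 0.0980). Without induced replicate 3 its edgeR adjusted p was 0.0311 and with DESeq2 0.0401, at the lower end of a range up to 0.374. EIF2S3, at 580, 561 and 545 CPM in the controls, was at 629, 597 and 761 CPM in the induced libraries (log2 fold change 0.24, edgeR adjusted p = 0.243, and 0.13 without induced replicate 3, edgeR adjusted p = 0.147). Per length, the ratio of EIF2S2 to EIF2S1 in TPM (counts per exon length, scaled to a common total) was 1.35, 1.43 and 1.62 in the controls and 1.84, 1.80 and 2.30 in the induced libraries. The ratio of EIF2S2 to EIF2S3 was 0.333, 0.362 and 0.422 in the controls and 0.477, 0.527 and 0.490 in the induced libraries. Both ratios were higher in every induced library than in any control. EIF2A and EIF2D, which deliver initiator tRNA without eIF2, had log2 fold changes of 0.13 each, and EIF2S3B, a retrocopy of the gamma subunit, had 0.10. The counts use unique alignments, and reads shared by EIF2S3 and EIF2S3B cannot be placed, so the split between them is uncertain.

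EIF1 keeps scanning ribosomes from starting at wrong codons. It was at 251, 257 and 275 CPM in the controls and at 343, 325 and 452 CPM in the induced libraries (log2 fold change 0.52 ± 0.12 SE, edgeR adjusted p = 0.0698). The groups did not overlap, and induced replicate 3 lay well above the others. Without that library the log2 fold change was 0.36 and passed the threshold (edgeR adjusted p = 0.0192), and over 14 alternatives the adjusted p ran from 0.0104 to 0.273. Its paralog EIF1B was at 14.6, 16.0 and 17.8 CPM in the controls and at 17.9, 21.7 and 28.3 CPM in the induced libraries (log2 fold change 0.49 ± 0.17 SE, edgeR adjusted p = 0.163, and 0.31 without induced replicate 3, edgeR adjusted p = 0.168). Its lowest induced value was just above the highest control. EIF1 held 89.4% ± 0.499 of the summed TPM of the pair in control and 89.6% ± 1.15 in induced cells (SD, n = 3 each), so the share differed by less than the spread between replicates. EIF1AX, the eIF1A that acts with eIF1 in scanning, and EIF1AD, a nuclear protein with an eIF1A domain, were at 0.09 and 0.05 on the log2 scale, and their groups overlapped.

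The exchange factor eIF2B has 5 subunits, with EIF2B3 and EIF2B5 forming the catalytic part and EIF2B1, EIF2B2 and EIF2B4 the regulatory part that senses phosphorylated eIF2. None passed the threshold in edgeR, and 0 had an unadjusted p under 0.05. Log2 fold changes were 0.15 for EIF2B2, 0.14 for EIF2B5, 0.14 for EIF2B3, 0.11 for EIF2B1 and -0.03 for EIF2B4. In EIF2B1 and EIF2B5 the groups did not overlap and induced cells were higher, as held for 11.5% of all genes tested. EIF2B5, for example, was at 73.3, 70.4 and 68.7 CPM in the controls and at 76.9, 83.5 and 73.5 CPM in the induced libraries (edgeR adjusted p = 0.351).

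The subunits of eIF3, the scaffold that joins the small ribosomal subunit to the other factors, were measured by 14 genes, including EIF3CL, a near copy of EIF3C. None passed the threshold in edgeR, 4 had an unadjusted p under 0.05, and 13 had a log2 fold change above 0, in a range from -0.18 to 0.38. Over all genes tested, 8.13% were higher and 10.6% lower at an unadjusted p under 0.05 in edgeR. The groups did not overlap in 7 genes, which were EIF3A, EIF3B, EIF3C, EIF3H, EIF3J, EIF3L and EIF3M, all higher in induced cells. The same held for 11.5% of all genes tested and for 2372 of 14865 protein-coding genes. EIF3J, a loosely bound subunit at the decoding site, was at 109, 122 and 129 CPM in the controls and at 147, 165 and 155 CPM in the induced libraries. Its log2 fold change of 0.38 (± 0.08 SE, edgeR adjusted p = 0.0564) was the largest of the complex, and it passed with DESeq2 (0.0127) and with no count filter (0.0329), within a range up to 0.233. EIF3C, a core subunit, was at 40.9, 42.9 and 41.6 CPM in the controls and at 47.9, 50.4 and 57.4 CPM in the induced libraries (log2 fold change 0.31, edgeR adjusted p = 0.0923). It passed without induced replicate 3 (0.0485) and with DESeq2 (0.0396), within a range up to 0.310, and its reads are split with EIF3CL in a way the counting cannot resolve.

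The remaining subunits of eIF3 differed less than EIF3J and EIF3C. EIF3A, the largest subunit, was at 605, 634 and 613 CPM in the controls and at 658, 690 and 662 CPM in the induced libraries (log2 fold change 0.12, edgeR adjusted p = 0.350). EIF3B and EIF3H, at 0.17 and 0.22, had unadjusted p under 0.05. EIF3K, a peripheral subunit, was at 137, 99.9 and 138 CPM in the controls and at 101, 120 and 110 CPM in the induced libraries (log2 fold change -0.18 ± 0.13 SE, edgeR adjusted p = 0.528). The low value of control replicate 2 makes the groups overlap. EIF3G, an RNA-binding subunit, was at 105 CPM in control replicate 1 against 141 and 153 CPM in control replicates 2 and 3. These 2 genes and EIF4H had the widest spread among controls of the tested factor genes, with coefficients of variation of 17.3%, 18.9% and 20.4%. EIF3D, EIF3E, EIF3F, EIF3I and EIF3CL overlapped between groups, with log2 fold changes from 0.04 to 0.20.

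**Figure D2:**
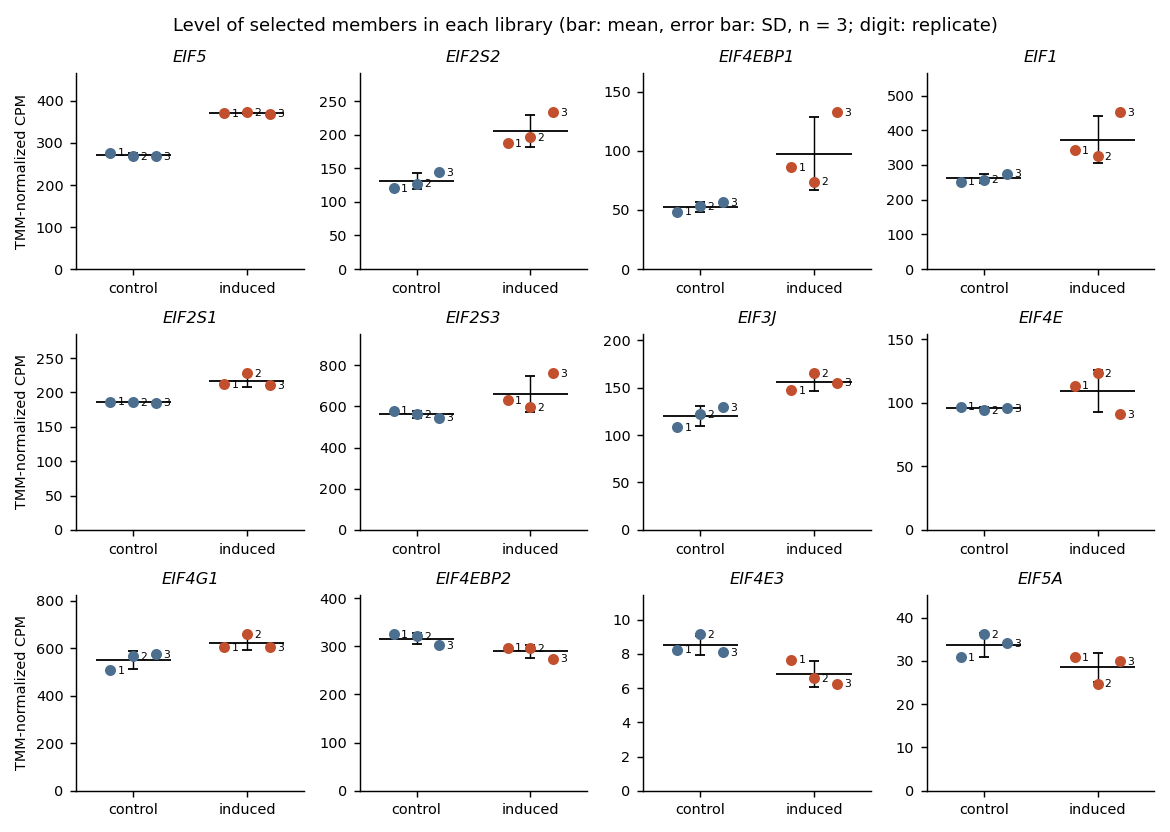
Normalized CPM (y axis, from 0) of 12 factor genes is shown in control and MYCN-induced cells (x axis), with a point for each library marked by its replicate number, a line for the mean and an error bar for the SD (n = 3). The groups are far apart for EIF5 and EIF2S2, induced replicate 3 is highest for EIF4EBP1 and EIF1, and it is lowest for EIF4E at 90.8 CPM.

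The cap-binding machinery was close to its control level in most genes. EIF4E (ENSG00000151247.13, chromosome 4 from 98879276 to 98929133, minus strand), which binds the mRNA cap, was at 96.8, 94.0 and 95.4 CPM in the controls and at 113, 123 and 90.8 CPM in the induced libraries. Induced replicates 1 and 2 were above every control and induced replicate 3 below every control (log2 fold change 0.19 ± 0.11 SE, edgeR adjusted p = 0.397). Without induced replicate 3 the log2 fold change was 0.32 (edgeR adjusted p = 0.0185, the lowest of a range up to 0.691). EIF4G1, the main scaffold, was at 509, 568 and 576 CPM in the controls and at 605, 660 and 606 CPM in the induced libraries, without overlap (log2 fold change 0.18 ± 0.08 SE, edgeR adjusted p = 0.255). EIF4A1, a helicase of eIF4F, was at 141, 138 and 133 CPM in the controls and at 144, 130 and 145 CPM in the induced libraries (log2 fold change 0.03 ± 0.07 SE, edgeR adjusted p = 0.889). Its sign depended on the scaling, with -0.0097 for library size only and -0.0063 for upper-quartile normalization, and 47.4% of its exon bases are shared with other annotated genes.

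The other genes of this machinery had log2 fold changes between -0.02 and 0.28, apart from EIF4E3. EIF4H, a cofactor of the helicase, was at 191, 255 and 289 CPM in the controls and at 291, 319 and 282 CPM in the induced libraries (log2 fold change 0.28, edgeR adjusted p = 0.340). Its difference rested on the low control replicate 1. EIF4B, another cofactor, was at 506, 476 and 456 CPM in the controls and at 513, 491 and 541 CPM in the induced libraries (log2 fold change 0.10, edgeR adjusted p = 0.493). EIF4G2, a scaffold known as DAP5 that does not bind eIF4E, was at 1068, 1030 and 1000 CPM in the controls and at 1094, 991 and 995 CPM in the induced libraries (log2 fold change -0.01, edgeR adjusted p = 0.966, and above 0 with DESeq2). EIF4G3, EIF4A2, the exon junction helicase EIF4A3 and EIF4E2, a cap-binding homologue that represses translation, had differences of -0.02, 0.02, 0.02 and 0.02 on the log2 scale. EIF4E3, a cap-binding homologue at a low level, was at 8.25, 9.16 and 8.09 CPM in the controls and at 7.66, 6.57 and 6.26 CPM in the induced libraries. All induced values were below all controls (log2 fold change -0.32 ± 0.12 SE, edgeR adjusted p = 0.196), and its adjusted p was above the threshold in all 14 alternatives, DESeq2 included. EIF4E1B, the oocyte homologue, had 5, 5 and 6 counts in the controls and 1, 1 and 2 in the induced libraries and was not tested.

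The 4E-binding proteins diverged. EIF4EBP1 (ENSG00000187840.5, chromosome 8 from 38030534 to 38060365, plus strand), an inhibitor of eIF4E and a known target of both MYC proteins and ATF4, was at 48.5, 53.1 and 56.4 CPM in the controls and at 86.2, 73.8 and 133 CPM in the induced libraries. The groups did not overlap, and induced replicate 3 was far above the others. The log2 fold change of 0.89 (± 0.20 SE, 1.85-fold) was the largest of the factor genes but missed the threshold (edgeR adjusted p = 0.0565). It was 0.61 without induced replicate 3 and then passed (edgeR adjusted p = 0.0147), as it did with DESeq2 (0.00115). With any other single library left out, the edgeR adjusted p was between 0.0439 without induced replicate 2 and 0.222 without control replicate 2. EIF4EBP2, the main 4E-binding protein of the brain, was at 325, 320 and 302 CPM in the controls and at 297, 296 and 274 CPM in the induced libraries, all below the controls (log2 fold change -0.13 ± 0.07 SE, edgeR adjusted p = 0.350). EIF4EBP3 was at 3.70, 3.38 and 3.43 CPM in the controls and at 3.67, 3.36 and 3.72 CPM in the induced libraries (log2 fold change 0.03, edgeR adjusted p = 0.919). Its sign turned with the scaling, to -0.0050 with library size only, and 73.2% of its exon bases also belong to a readthrough gene. EIF4ENIF1, which carries eIF4E into the nucleus and processing bodies, had a log2 fold change of -0.12.

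Per length, the makeup of the inhibitor genes shifted toward EIF4EBP1. Its share of the summed TPM of EIF4EBP1, EIF4EBP2 and EIF4EBP3 was 53.0%, 55.9% and 58.6% in the controls and 68.6%, 65.4% and 78.2% in the induced libraries. The share of EIF4EBP2 was 41.8%, 39.6% and 36.9% in the controls and 27.7%, 30.8% and 19.0% in the induced libraries. Neither share overlapped between conditions, also with the length of the canonical transcript in place of all merged exons. The ratio of EIF4EBP1 to EIF4E in TPM was 2.83, 3.19 and 3.34 in the controls and 4.30, 3.39 and 8.25 in the induced libraries. Induced replicate 2 was only just above the highest control, and induced replicate 3 stood apart. The ratio of the 3 inhibitors together to EIF4E was 5.33, 5.71 and 5.70 in the controls and 6.27, 5.18 and 10.5 in the induced libraries, and here the groups overlapped. The size of such ratios depends on the gene lengths used.

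**Figure D3:**
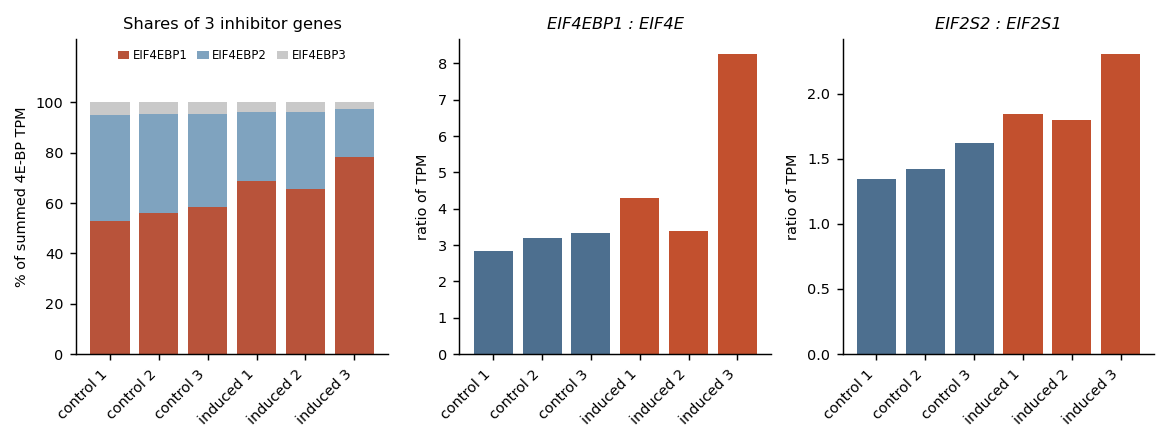
Bars for each library (x axis) show the shares of EIF4EBP1, EIF4EBP2 and EIF4EBP3 in their summed TPM in percent (left), the TPM ratio of EIF4EBP1 to EIF4E (middle) and that of EIF2S2 to EIF2S1 (right), with controls in blue and induced libraries in orange in the middle and right panels. The share of EIF4EBP1 is 53.0% to 58.6% in the controls and 65.4% to 78.2% in the induced libraries, and both ratios are highest in induced replicate 3, at 8.25 and 2.30.

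Of the remaining factors, eIF5A is needed for elongation and termination at difficult sequences, eIF5B joins the subunits, and eIF6 keeps free large subunits apart. EIF5A was at 30.8, 36.2 and 34.1 CPM in the controls and at 30.9, 24.8 and 29.9 CPM in the induced libraries, with 1 induced value inside the control range (log2 fold change -0.24 ± 0.11 SE, edgeR adjusted p = 0.282). Its paralog EIF5A2 was at 6.41, 6.61 and 6.44 CPM in the controls and at 7.04, 8.63 and 8.04 CPM in the induced libraries, without overlap (log2 fold change 0.29 ± 0.11 SE, edgeR adjusted p = 0.210). The share of EIF5A2 in the summed TPM of EIF5A, EIF5A2 and the intronless copy EIF5AL1 was 8.94%, 7.94% and 8.20% in the controls and 9.61%, 14.0% and 11.2% in the induced libraries, all above the controls. With the length of the canonical transcript the shares were lower, from 3.96% to 4.48% in the controls and from 4.86% to 7.26% in the induced libraries, again without overlap. EIF5A and EIF5AL1 are near-identical in their coding part, so reads that fit both are not counted and the split is uncertain. EIF6 was at 53.7, 55.6 and 52.6 CPM in the controls and at 58.6, 43.7 and 73.3 CPM in the induced libraries (log2 fold change 0.12 ± 0.16 SE, edgeR adjusted p = 0.762). Its induced values lay on both sides of the controls, and the log2 fold change was -0.07 without induced replicate 3. EIF5B had a log2 fold change of 0.06 and EIF5AL1 one of 0.23, with overlapping groups.

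In control cells the highest levels per length, over all merged exons, were those of EIF2S3 at 226 ± 18.5 TPM, EIF4G2 at 200 ± 16.8, EIF3A at 143 ± 6.65, EIF4B at 131 ± 13.6 and EIF1 at 118 ± 2.26 TPM (SD, n = 3). EIF2S3 and EIF4G2 overlapped in their 3 values, as did EIF3A with EIF4B and EIF4B with EIF1, while the lowest value of EIF4G2 (184 TPM) was above the highest of EIF3A (147 TPM). The lowest levels were those of EIF5A2 at 1.92 ± 0.0936, EIF4E3 at 1.29 ± 0.109, EIF3CL at 0.697 ± 0.0712, EIF5AL1 at 0.515 ± 0.0408 and EIF4E1B at 0.0254 ± 0.0016 TPM (SD, n = 3). The 3 values of neighbours among these 5 did not overlap. The order depends on the length used. With the length of the canonical transcript, an alternative chosen after seeing the data, EIF4G2 was first at 369 TPM, followed by EIF3I at 281, EIF3E at 257, EIF2S3 at 221 and EIF3K at 219 TPM. EIF3E moved most, from 16.7 TPM, because its merged exons cover 37761 bases and its canonical transcript 2022.

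Within families, 1 or 2 genes held most of the RNA. EIF4A2 held 46.2% ± 0.983 and EIF4A1 39.9% ± 0.926 of the EIF4A total in the controls, and the shares in induced cells were 46.1% ± 1.31 and 40.0% ± 1.71 (SD, n = 3 each). Of the exon bases of EIF4A1, 47.4% are shared with genes on the same strand, against 10.5% for EIF4A2. Pairs overlapping several genes were split between them, so the order of EIF4A1 and EIF4A2 is uncertain. EIF4G2 held 56.0% ± 1.33 of the EIF4G total in control and 53.9% ± 2.02 in induced cells, with overlapping values. EIF4E held 53.5% ± 0.780 of the total of the cap-binding homologues in control and 56.6% ± 2.76 in induced cells, also with overlap, while EIF4E3 moved from 2.19% ± 0.150 to 1.64% ± 0.166 (SD, n = 3 each) without overlap. The order of EIF4E and EIF4E2 turned with the length used. With the canonical transcript EIF4E2 held 72.8% ± 0.564 and EIF4E 26.6% ± 0.587 in control cells, and 70.6% ± 2.28 and 29.0% ± 2.30 in induced cells (SD, n = 3 each), with overlapping values for both.

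**Figure D4:**
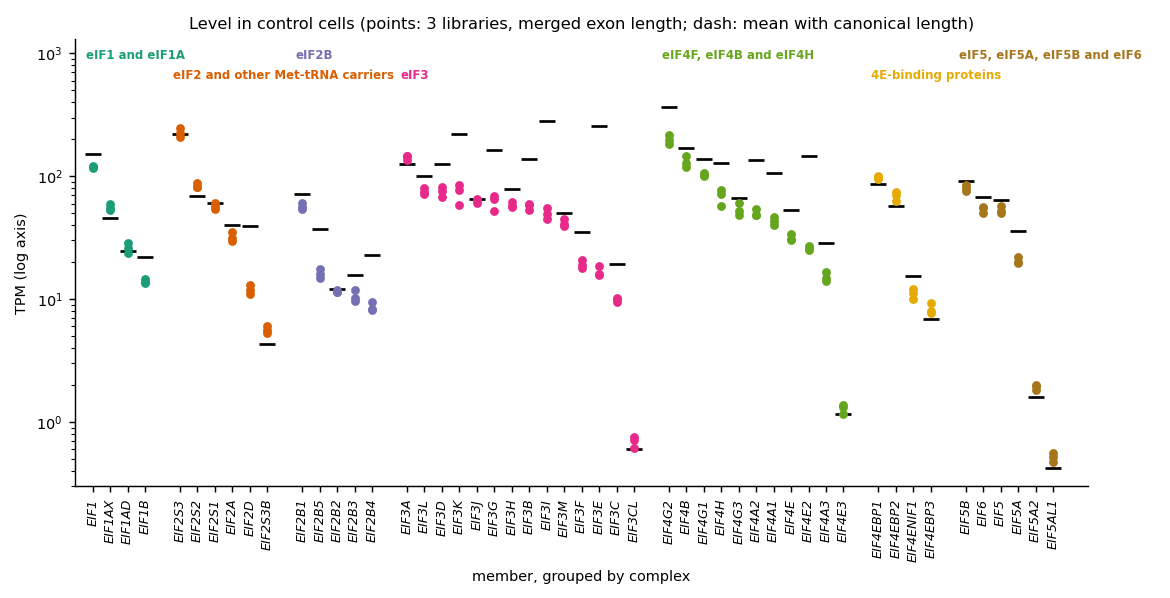
The level of 50 factor genes in control cells is plotted in TPM on a log axis (y axis) by complex (x axis), with a point for each of the 3 control libraries and a dash for the mean with the canonical transcript length. Levels run from 226 TPM for EIF2S3 to 0.515 TPM for EIF5AL1, and EIF4E1B, at 0.0254 TPM, is left out.

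Across libraries the factor genes took 0.945%, 0.927% and 0.918% of all counts in control replicates 1, 2 and 3 and 1.01%, 1.03% and 0.969% in the induced libraries. After normalization they summed to 9226, 9189 and 9173 CPM in the controls and to 10037, 10035 and 10405 CPM in the induced libraries. Every induced library was above every control on both scales. The median coefficient of variation of the tested factor genes was 3.36% among controls and 8.61% among induced libraries. Over all genes tested it was 9.15% and 14.5%. All genes tested include genes with low counts, and no set of genes of like level was compared. Whether the factor genes vary less than other genes of their level was thus not tested. Of the 50 tested genes, 22 had their highest value in induced replicate 3, 16 in induced replicate 2 and 7 in induced replicate 1, so the size of single differences depended on the library. Of all genes tested, 25.0%, 19.0% and 12.3% were highest in induced replicates 3, 2 and 1, which is the same order. The 51 genes lay on 18 chromosomes, with 7 on chromosome 3.

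**Figure D5:**
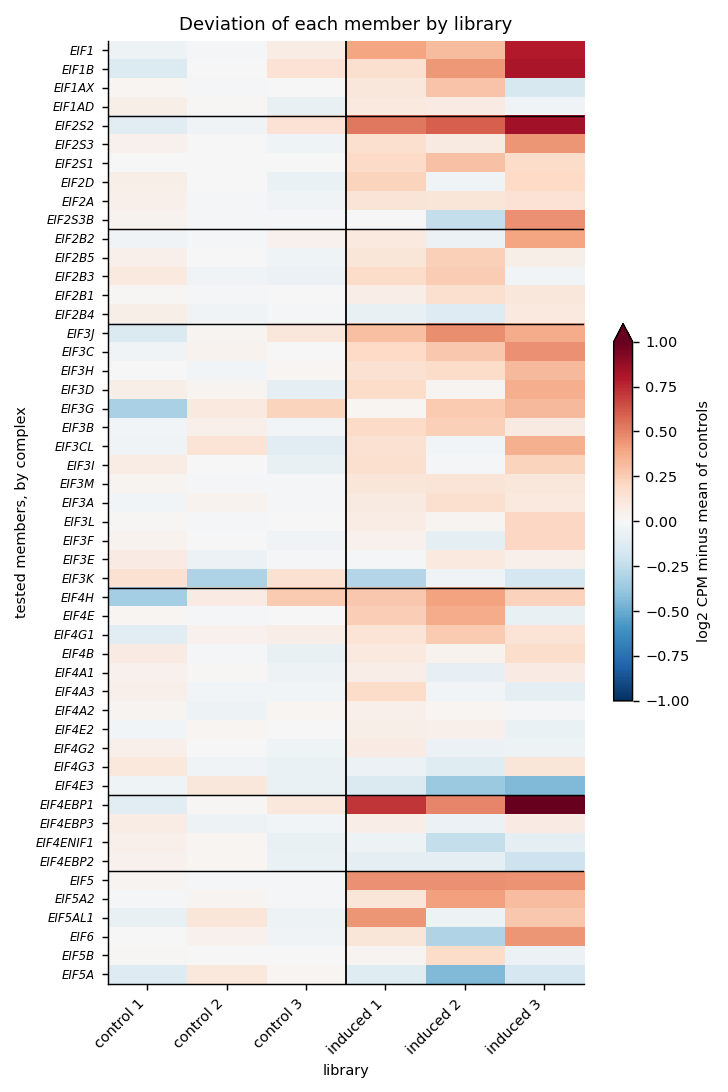
Colours give log2 CPM minus the mean of the 3 controls for the 50 tested factor genes (y axis, lines between complexes) in each library (x axis), with red above and blue below the controls. The row of EIF5 is even over the 3 induced libraries, while EIF4EBP1 is at 0.71, 0.49 and 1.33 in induced replicates 1, 2 and 3.

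The order of the induced libraries in EIF4EBP1, with replicate 3 above 1 and 1 above 2, recurred in some other factor genes. These included EIF1, EIF2S3, EIF6 and, with small differences, EIF4EBP3, so the order is not particular to EIF4EBP1. Other factor genes had other orders, among them EIF2S2, EIF1B, EIF3J, EIF2S1 and EIF4E. How often the order of EIF4EBP1 occurs among all genes was not counted. The median of the targets of ATF4 had the order of EIF4EBP1. Of 15 such genes, 14 were tested, 14 had a log2 fold change above 0 and 3 rose in edgeR (ATF4 itself, PHGDH of serine synthesis and the cystine carrier SLC7A11, with edgeR adjusted p of 0.0475, 0.0482 and 0.0494). Their median deviation from the control mean was -0.02, -0.01 and 0.07 in control replicates 1, 2 and 3 and 1.20, 0.65 and 3.20 in induced replicates 1, 2 and 3 on the log2 scale, and the median log2 fold change was 2.19, or 0.81 without induced replicate 3. The 3 called stand beside 1.02% of all genes called higher in edgeR. Without induced replicate 3, 9 were called higher (3.68% of all genes), as were 9 with DESeq2 (3.11% of all genes). With the replicate number as a block 5 were called higher (0.911% of all genes). Their part in the values of EIF4EBP1 and EIF1 was not tested. ATF4 was at 189, 189 and 204 CPM in the controls and at 319, 300 and 547 CPM in the induced libraries.

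Of 29 regulators of initiation outside the symbol rule, 1 rose and 1 fell in edgeR, beside 1.02% and 2.38% of all genes, and 23 had a log2 fold change above 0, with a median of 0.08. With induced replicate 3 left out, 5 were called higher and 1 lower, beside 3.68% and 4.44% of all genes. DESeq2 called 3 higher and 1 lower, beside 3.11% and 4.12% of all genes. BZW2, a mimic of eIF5, was at 106, 108 and 109 CPM in the controls and at 137, 146 and 131 CPM in the induced libraries and rose (log2 fold change 0.36 ± 0.07 SE, edgeR adjusted p = 0.0313). EIF2AK3, the kinase PERK that phosphorylates EIF2S1 under endoplasmic reticulum stress, was at 19.9, 18.9 and 17.8 CPM in the controls and at 12.4, 13.8 and 11.8 CPM in the induced libraries and fell (log2 fold change -0.57 ± 0.10 SE, edgeR adjusted p = 0.0241). Neither overlapped between groups. Both were also called without induced replicate 3 (edgeR adjusted p 0.0089 for BZW2 and 0.0168 for EIF2AK3). BZW2 passed in 6 of 14 alternatives (adjusted p from 7.396e-04 to 0.187) and EIF2AK3 in 10 (from 4.873e-05 to 0.145). The other eIF2 kinases EIF2AK1, EIF2AK2 and EIF2AK4 had log2 fold changes of 0.05, 0.07 and -0.05 and were not called. Of 14 elongation and termination factors, 1 rose in edgeR, beside 1.02% of all genes, 10 were above 0, beside 49.9% of all genes, and the median was 0.09. The one that rose was the release factor ETF1, at 213, 208 and 211 CPM in the controls and at 247, 261 and 264 CPM in the induced libraries (log2 fold change 0.29 ± 0.06 SE, edgeR adjusted p = 0.0437, past the threshold in 6 of 14 alternatives). ETF1 was again the one called without induced replicate 3 (edgeR adjusted p = 0.0197). DESeq2 called 3 higher, beside 3.11% of all genes. These were ETF1, EEF1A2, the elongation factor of neurons and muscle, and EEF2K, the kinase of EEF2. For EEF1A2 and EEF2K the DESeq2 adjusted p was 0.00561 and 0.00116, against edgeR adjusted p of 0.0964 and 0.0596. The log2 fold changes of EEF1A2 and EEF2K in DESeq2 were 1.01 and 0.77.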

How the data were processed

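The authors deposited, for each library, estimated counts, that is read pairs per gene over all exons without normalization. Per the file headers, unique STAR alignments (STAR 2.7.1a and GRCh38 in the submitters' processing notes) were counted with featureCounts 1.6.4 without a strand option, and pairs overlapping several genes were shared in equal fractions. The processing notes name featureCounts 1.5.1 and the methods name a strand option, so counts of genes that overlap others are uncertain. That applies to the 12 members with more than 10% of their exon bases shared. Identifiers matched GENCODE 44 in 99.65% of cases, and 47 of the 51 members had the same coordinates there. The 92 spike-in sequences had 0 counts and were left out.

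Conditions and replicate numbers were read from the sample titles. After rounding, edgeR 4.0.16 in R 4.3.3 was run on genes reaching 10 counts in 3 or more libraries (TMM, quasi-likelihood test, Benjamini-Hochberg adjustment over 29086 genes, threshold 0.05, no replicate block). DESeq2 1.42.0, which the study used, was an alternative. Standard errors were derived as the absolute log2 fold change over the square root of the F statistic. TPM used the exon lengths of the count files. The scripts were tested on simulated data. Depth left little counting error for most members, and the precision was set by the spread between cultures (biological coefficient of variation 0.153). Replicates differed by more than sampling noise (chi-square per gene from 12.3 to 151).

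The members, the gene lists (written from general knowledge), the promoter motifs and the rule for named members (every call, the 4 largest other rises and falls, a set of central factors, and the 5 highest and lowest levels) were chosen with earlier results of these data known. CircRNA counts, quantitative PCR and protein measurements were not analysed here.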

Additional observations from a re-analysis of the deposited data

How the results depend on the processing

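The alternatives were other scalings, DESeq2, no count filter or at least 100 counts in every library, protein-coding genes only, counts not rounded, thresholds of 0.01 and 0.1, a replicate block, and leaving out each library. In all of them 0 of the factor genes were called lower. The number called higher was 2 as reported. It was 4 with library size only or with the replicate block, beside 0.822% and 0.911% of genes tested. It was 7 with DESeq2 and 5 with no count filter, beside 3.11% and 1.04%. Thresholds of 0.01 and 0.1 gave 1 and 7, and the shares of all genes at these are not given here. When 1 library was left out, the number ran from 0 (without control replicate 2 or 3) to 7 (without induced replicate 3). The remaining alternatives gave 2 or 3, beside 0.918% to 1.55% of the genes tested in them. With 1 library left out, the share of all genes called higher ran from 0.0630% (without control replicate 2) to 3.68% (without induced replicate 3). The median log2 fold change of the tested factor genes was 0.090 when scaled by library size only and 0.093 after upper-quartile normalization, where the median of all genes was -0.03. When 1 library was left out, the median ran from 0.087 to 0.14 for eIF2B, from 0.0092 to 0.064 for eIF4F with its cofactors and from -0.074 to 0.0033 for the 4E-binding proteins. Of 321 log2 fold changes of named genes under alternatives, 287 had the reported direction and call. Signs turned for EIF4A1 (-0.0097 with library size only, -0.0063 with upper-quartile normalization, from -0.00062 to 0.075 with 1 library left out), EIF4EBP3 (-0.0050 and -0.0021 with these scalings), EIF4G2 (0.0077 with DESeq2, 0.0057 with no count filter, from -0.049 to 0.022 with 1 library left out) and EIF6 (from -0.070 to 0.29 with 1 library left out). The cause of these changes was not tested. Levels in TPM with protein-coding genes only moved by more than 1 SD for all 24 named genes, and with canonical transcript lengths, chosen after seeing the data, for 23.

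The labels do not say whether control and induced cultures with the same replicate number were paired. The correlations of same-numbered deviations across genes were 0.22, -0.019 and 0.074. Weak correlations do not exclude pairing, so this check could not decide the question. With the replicate number as a block, 4 factor genes were called higher and 0 lower, beside 0.911% and 1.98% of all genes.

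The precision is limited by 3 cultures a condition, by induced replicate 3, and by reads that near-identical copies or overlapping genes share.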
